A study of Mus musculus with 2 samples.

Results

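DNase I hypersensitivity was examined at 10 genes, which are members of the Egr and Klf families and Nab2. The Egr and Klf families encode zinc finger transcription factors that bind GC-rich DNA. The genes were Egr1, Egr2 and Egr3, their corepressor gene Nab2, and Klf2, Klf3, Klf4, Klf6, Klf10 and Klf13. They were found by name among the 22605 genes of the deposited table, where 32 transcripts carry one of these names, and the transcript with most windows stands for its gene. M1, a murine line of leukemic myeloid progenitors, turns macrophage-like under the cytokine IL-6. The data hold 1 library of M1 cells without IL-6 (M1) and 1 library of M1 cells grown with IL-6 for 4 to 5 days (M1+IL-6), both otherwise kept in horse serum medium, and the dose of IL-6 is not given in the sources used here. Limited digestion of nuclei with DNase I releases short fragments mainly from accessible chromatin, and these fragments were sequenced. With 1 library per condition no difference has a replicate check, no test was made, and every interval below is a 95% interval that covers counting error only. The line is a single leukemia line measured in bulk, so that a weaker signal in all cells and a signal lost from some of the cells cannot be told apart.

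EGR proteins are products of immediate early genes, which are switched on within minutes of a growth factor or cytokine signal through serum response factor, SRF, and its partners. NAB2 binds EGR proteins and limits what they activate, and its own gene is a target of EGR factors. In blood, EGR1 and EGR2 are known for promoting macrophage over neutrophil fate. The KLF factors share C-terminal zinc fingers that bind CACCC and GC boxes. KLF4 is known for monocyte differentiation, KLF2 for keeping lymphocytes and endothelial cells quiescent, and KLF6 for inflammatory gene expression in macrophages. KLF10 is induced by TGF-beta, KLF3 represses genes through the CtBP corepressor, and KLF13 regulates lymphocyte and erythroid genes.

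The table gives the mean and the SD of the signal over the 700-bp windows that a coding span (start to stop codon) touches. Multiplied by the number of windows, each mean is a whole number of reads in M1 and a whole multiple of 1.03816 in M1+IL-6, so the reads behind each span are known. Signal is given below as scaled reads per window, and reads are given unscaled. Counted once over the autosomes and X, coding spans contained 9041718 reads in M1 and 8497929 in M1+IL-6. The median mean signal of all genes was 7.75 reads per window in M1 and 8.14 in M1+IL-6. Of 5 myeloid marker genes found in the table (of 6 listed), the mean signal in M1 ran from 7.86 (Ptprc) to 46.5 (Cebpa), against at most 4.83 for the erythroid genes Hbb-b1 and Gata1 and 3.09 to 21.1 for the 4 genes of other tissues. The ranges overlap, so these values neither set the myeloid genes apart nor name the cells.

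On NCBIM37 the coding spans of 6 of the 10 genes reach windows that hold the main annotated transcription start site, taken as the start that most transcripts share. These are Egr2, Egr3, Nab2, Klf2, Klf6 and Klf10. The windows of Egr1, Klf13 and Klf4 begin 140, 201 and 347 bp downstream of it, and those of Klf3 begin 13173 bp downstream, so that the Klf3 promoter is not covered. The annotated start of Egr3 coincides with its start codon. At least part of the 250 bases upstream of the start site lies inside the measured windows for the 6 genes whose windows hold the start site, and the stretch is shown for 4 of them. It is not shown for Egr3, where it may be untranslated sequence, or for Nab2, where it overlaps an exon of Tmem194. Egr2, Klf2 and Klf6 are covered over all 250 bases, and Klf10 over the 36 bases nearest the start, which do not reach its GC boxes. They are written 5′ to 3′ on the strand of the gene, and capitals mark matches to the motifs named below, of which Klf6 has none.
Egr2 (chr10:67000367-67000616, plus strand): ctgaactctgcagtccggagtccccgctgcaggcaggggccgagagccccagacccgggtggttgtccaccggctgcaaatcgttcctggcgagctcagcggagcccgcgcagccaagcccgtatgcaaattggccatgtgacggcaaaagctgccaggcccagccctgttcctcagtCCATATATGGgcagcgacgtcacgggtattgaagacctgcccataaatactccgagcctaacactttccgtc
Klf6 (chr13:5860485-5860734, plus strand): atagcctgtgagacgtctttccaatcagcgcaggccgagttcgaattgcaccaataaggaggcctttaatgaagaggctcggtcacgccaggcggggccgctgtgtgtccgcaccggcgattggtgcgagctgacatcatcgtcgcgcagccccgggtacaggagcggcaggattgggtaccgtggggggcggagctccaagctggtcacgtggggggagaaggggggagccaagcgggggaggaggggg
Klf2 (chr8:74842682-74842931, plus strand): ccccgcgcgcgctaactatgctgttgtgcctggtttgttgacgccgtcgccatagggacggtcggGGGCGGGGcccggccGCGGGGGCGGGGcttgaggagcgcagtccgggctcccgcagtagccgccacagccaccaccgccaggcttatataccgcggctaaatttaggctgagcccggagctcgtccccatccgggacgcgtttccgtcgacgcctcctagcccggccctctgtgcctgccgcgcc
Klf10 (chr15:38230465-38230714, minus strand): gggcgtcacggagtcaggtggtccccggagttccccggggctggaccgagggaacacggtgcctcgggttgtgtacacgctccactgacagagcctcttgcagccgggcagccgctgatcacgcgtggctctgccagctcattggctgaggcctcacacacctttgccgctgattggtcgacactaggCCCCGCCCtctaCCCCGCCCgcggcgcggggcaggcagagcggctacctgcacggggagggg

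Motifs were searched on both strands of these 250 bases for all 10 genes and for 22375 promoters of protein-coding genes. The 22375 promoters were taken upstream of the most 5′ annotated start of each gene. In Egr2 and Nab2 the main start used here lies downstream of that one, so their matches and the shares below rest on different rules. The CArG box, which SRF binds, was found in the promoters of Egr1 and Egr2 and in 1.34% of all promoters. In Egr2 it lies 72 to 63 bases upstream of the start site and reads CCATATATGG. In Egr1 a pair of CArG boxes lies 105 to 96 and 83 to 74 bases upstream. The GC box GGGCGGGG, which SP and KLF factors bind, was found in 6 of the 10 promoters (Nab2, Klf2, Klf3, Klf4, Klf10 and Klf13) and in 20.1% of all promoters. The EGR motif GCGGGGGCG was found in Klf2, Klf3 and Klf4 and in 3.26% of all promoters, and in each of them a match overlaps a GC box. The EGR motif GCGTGGGCG (0.670% of all promoters), the KLF motif CCACACCC (3.24%), the STAT motif TTCCNGGAA (0.939%) and the CRE TGACGTCA (1.91%) were found in 0 of the 10. A match describes the letters in this stretch and does not show that a factor binds there.

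In untreated M1 cells the signal differed widely between the 10 genes. The 6 genes Klf6, Klf10, Egr2, Nab2, Klf13 and Egr1 had means from 19.8 to 43.3 reads per window, at the 84.2 to 94.6 percentiles of all genes. The 4 genes Klf2, Egr3, Klf3 and Klf4 had means from 4.83 to 12.8 reads per window. The highest mean was 8.97-fold the lowest. The windows of Egr1, Klf3, Klf4 and Klf13 begin downstream of the start site, so the means cover unlike parts of the genes. Klf6, Klf10 and Egr2 could not be put in order, since the intervals of neighboring genes overlap (39.1 to 47.9, 36.3 to 43.2 and 33.8 to 42.5 reads per window). The interval of Egr2 did not reach that of Nab2 (25.2 to 32.7). All other neighbors in the order overlapped. In M1+IL-6 this spread was much smaller. The 10 means ran from 6.06 to 15.0 scaled reads per window, a 2.48-fold range, and the intervals of all neighbors in the order overlapped. The first 6 genes lay between 12.8 and 15.0 and the other 4 between 6.06 and 9.97, although in M1 the intervals of Egr1 (15.6 to 24.6) and Klf2 (9.49 to 16.8) overlap.

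**Figure D1:**
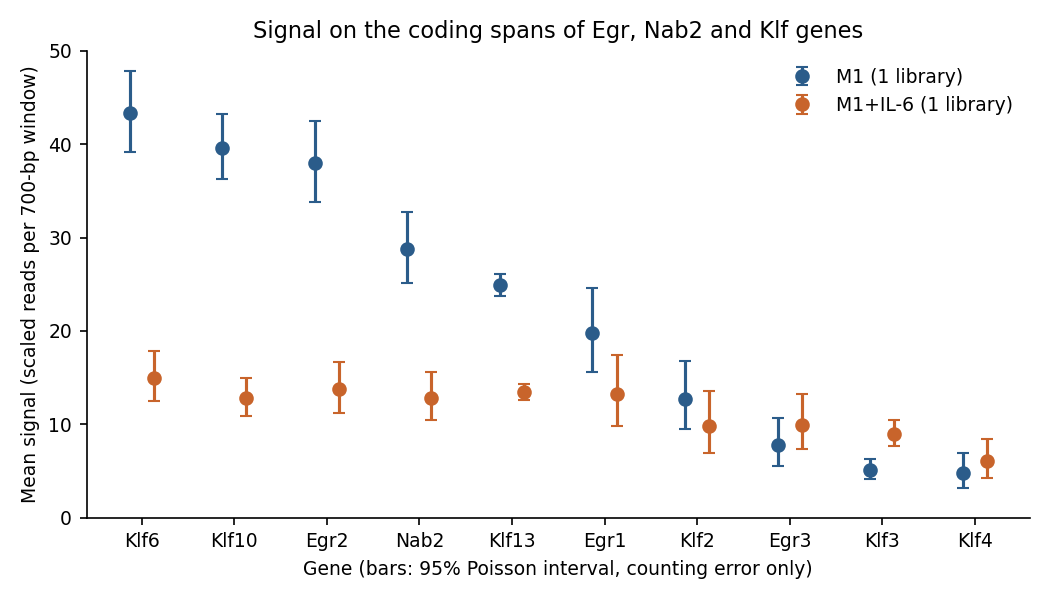
Mean signal (vertical axis, scaled reads per 700-bp window) on the coding span of each gene in M1 (blue) and M1+IL-6 (orange), 1 library each, ordered by M1. Bars are 95% Poisson intervals for counting error, and the values run from 4.83 to 43.3 in M1 and from 6.06 to 15.0 in M1+IL-6.

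All 10 genes had more than 21 reads in at least 1 library and entered the comparison of the libraries. With the deposited scaling, 4 of the 10 had lost 2-fold or more in M1+IL-6 (Klf10, Klf6, Egr2 and Nab2), against 13.4% of all 18472 genes compared. A gain of 2-fold or more was seen in 0 of the 10 and in 1.71% of all genes. The interval of the ratio lay below 1 for 6 genes, above 1 for Klf3, and held 1 for Egr3, Klf2 and Klf4, against 34.4% of all genes below 1 and 29.0% above 1. The median log2 ratio of the 10 genes was -0.73, and that of all genes compared was 0.03. The direction of the lower genes depends on the scaling. When strong single windows set it, all log2 ratios move up by 1.83. The 10 genes then have a median log2 ratio of 1.09 against 1.89 for all genes. With that scaling 0 of the 10 have an interval below 1 and 8 above 1, against 0.942% and 93.4% of all genes.

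The ratio was lower where the M1 signal was higher, across the table as in the 10 genes, and the M1 value enters both quantities. Among all genes in the M1 signal range of Klf10, Klf6 and Egr2 (32.0 to 45.3 reads per window, 671 genes) the median log2 ratio was -1.20 and 66.0% were at least 2-fold lower. In the range of Klf3 and Klf4 (4.00 to 5.66 reads per window, 2221 genes) it was 0.33 and 0.630% were at least 2-fold lower. The interval of the ratio held the median of the gene's own M1 range for 7 of the 10 genes, the exceptions being Klf10 and Klf6, which were lower than it, and Klf3, which was higher. When the genes were instead binned by the sum of both libraries, the interval held the median of the bin for 4 of the 10 (Egr1, Egr3, Klf2 and Klf4). Klf10, Klf6, Egr2, Nab2 and Klf13 were lower than that median, and Klf3 was higher. The share of all genes whose interval holds the median of its bin was not computed for either binning. The part that the weaker contrast of the whole M1+IL-6 library has in the values of single genes was not tested.

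**Figure D2:**
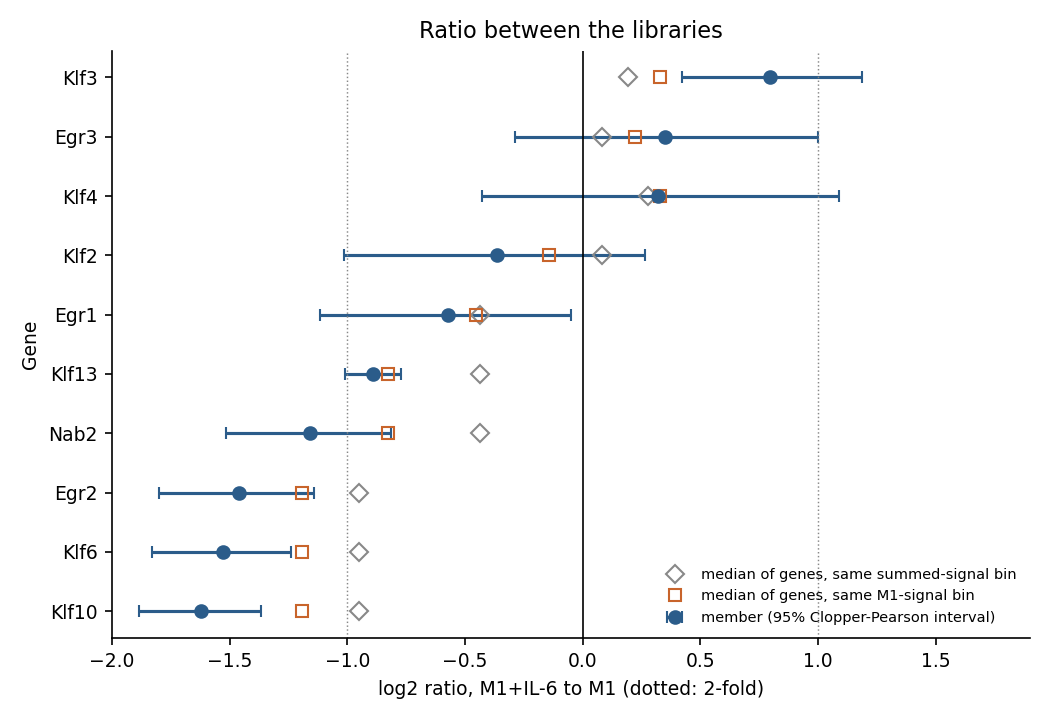
log2 ratio of M1+IL-6 to M1 (horizontal axis, deposited scaling) for each gene, with its 95% Clopper-Pearson interval, and open symbols for the median of all genes in the same bin of summed signal (diamonds) or of M1 signal (squares). The genes run from -1.62 (Klf10) to 0.80 (Klf3), and scaling on strong single windows would move every point right by 1.83.

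**Figure D3:**
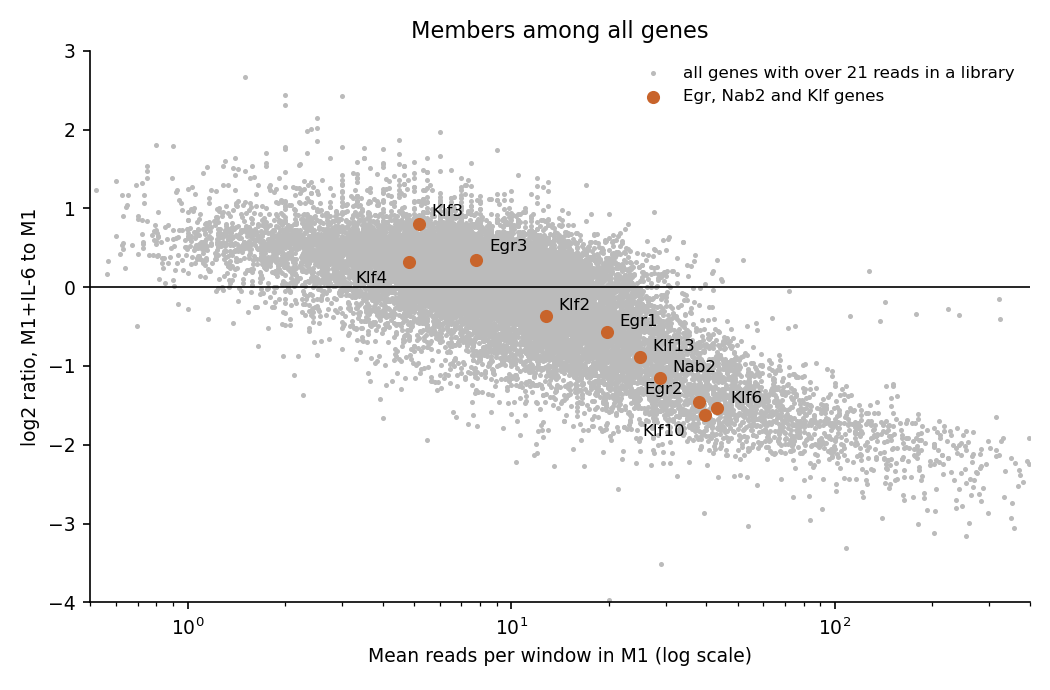
log2 ratio of M1+IL-6 to M1 (vertical axis, deposited scaling) against the mean reads per window in M1 (horizontal log axis) for all genes compared (gray) and the 10 genes (orange). In the gray cloud strong genes are lower and weak genes higher with this scaling, and the 10 genes follow this direction. The intervals of Klf10 and Klf6 lie below the median of their M1 range and that of Klf3 above it. Of 18472 genes, 48 lie outside the axes.

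Egr1 (ENSMUSG00000038418.6) spans 35020861 to 35024638 of chromosome 18 (plus strand), and 4 windows cover its coding sequence, its intron and parts of its untranslated regions. The gene encodes the best known immediate early member of the family. It held 79 reads in M1 and 51 in M1+IL-6, means of 19.8 and 13.2 scaled reads per window. The signal was lower after IL-6 by a ratio of 0.670 (0.462 to 0.965), whose upper bound is close to 1. In M1 the strongest window of Egr1 had 26 to 30 reads, the range that the sum and the SD allow together. In M1+IL-6 the mean and SD allow a single set, 15, 13, 12 and 11 reads, which is nearly flat over the gene.

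Egr2 (ENSMUSG00000037868.8) encodes KROX20, and spans 66998223 to 67004936 of chromosome 10 (plus strand). Its 8 listed transcripts have 5 distinct spans, which separate single windows, a pair of windows and an upstream block of 4. The longest transcript, which starts upstream of the main start site at 67000617, covers 8 windows with 304 reads in M1 and 106 in M1+IL-6, means of 38.0 and 13.8 scaled reads per window and a ratio of 0.362 (0.287 to 0.453). Most of this signal was upstream of the main start site. The 4 windows from 66997701 to 67000500 end at position -117 from it and hold mostly intron of the longer transcripts. They had 198 reads in M1 and 60 in M1+IL-6. In M1 their strongest window had 143 to 148 reads. In M1+IL-6 the 4 windows had 38, 14, 4 and 4 reads, in an order that is not known. A single window therefore held most of the reads of this stretch in both libraries, and the ratio of the stretch was 0.315 (0.232 to 0.422).

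The next window of Egr2, from 67000501 to 67001200, holds the start site and the promoter from position -116, including the CArG box printed above. It had 49 reads in M1 and 14 in M1+IL-6, a ratio of 0.297 (0.151 to 0.546). Past it the signal was lower in M1. The following window had 20 and 16 reads, the next pair 37 and 16 reads, and a last window, which the longest transcripts do not reach and which holds the end of the coding sequence, 16 and 25 reads. Together these 4 windows had 73 and 57 reads, a ratio of 0.811 (0.563 to 1.16). The interval of the upstream windows thus did not overlap that of the 4 windows after the start site window. In M1 the upstream 4 windows held 65.1% of the reads of the longest span.

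Klf10 (ENSMUSG00000037465.8) spans 38221219 to 38230464 of chromosome 15 (minus strand). Its longest span of 13 windows held 515 reads in M1 and 161 in M1+IL-6, means of 39.6 and 12.9 scaled reads per window. The ratio of 0.325 (0.270 to 0.388) was the lowest of the 10 genes, but its interval overlaps those of Klf6, Egr2 and Nab2. Differences between its 4 transcripts separate the window at the start site, from 38229801 to 38230500, which had 200 reads in M1 and 40 in M1+IL-6. This window alone held 38.8% of the reads of the span in M1 and 24.8% in M1+IL-6, and its ratio was 0.208 (0.144 to 0.293). The 6 windows after it had 281 and 97 reads, a ratio of 0.358 (0.282 to 0.453), and in M1 one of them had 110 to 157 reads. The 6 windows at the 3′ end of Klf10, which are mostly intron and untranslated sequence, had 34 and 24 reads, a ratio of 0.733 (0.416 to 1.27). The start site window was the strongest of Klf10 in both libraries, since no other reached 200 reads in M1 or 40 in M1+IL-6. With scaling on strong single windows its log2 ratio was -0.43 in place of -2.25 and its interval was 0.511 to 1.04.

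**Figure D4:**
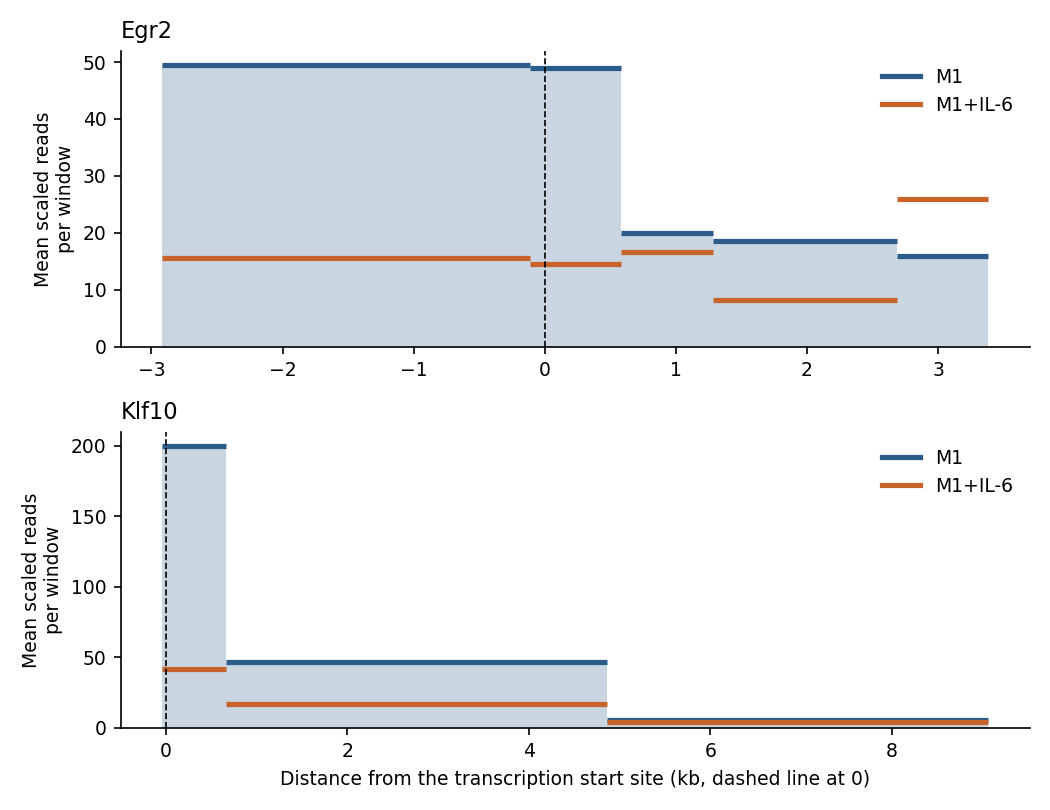
Mean scaled reads per window (vertical axis) over the stretches of Egr2 and Klf10 that differences between transcripts separate, against the distance from the transcription start site in kb (dashed line at 0), in M1 (blue, shaded) and M1+IL-6 (orange). In M1 the signal of both genes was highest at or upstream of the start site, with 49.5 and 49.0 reads per window in Egr2 and 200 reads in the first window of Klf10. In the last stretch the mean was 16.0 in M1 and 26.0 in M1+IL-6 for Egr2, and 5.67 and 4.15 for Klf10.

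Klf6 (ENSMUSG00000000078.6) spans 5860735 to 5869639 of chromosome 13 (plus strand). Its single transcript covers 9 windows with 390 reads in M1 and 130 in M1+IL-6, means of 43.3 and 15.0 scaled reads per window and the highest mean of the 10 genes in both libraries, although the intervals of the next genes overlap it. The ratio was 0.346 (0.282 to 0.423). The signal of Klf6 was the most uneven of the 10 genes relative to its mean. Its SD between windows was 89.2 in M1, and such a sum and SD require 1 window with 243 to 281 reads, or 62.3% to 72.1% of all reads of the span. In M1+IL-6 the strongest window had 36 to 61 reads, 27.7% to 46.9% of the span. Which of the 9 windows it was cannot be read from a single transcript.

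Nab2 (ENSMUSG00000025402.5) spans 127097974 to 127105624 of chromosome 10 (minus strand). Its 8 windows held 230 reads in M1 and 99 in M1+IL-6, means of 28.8 and 12.8 scaled reads per window, with a ratio of 0.447 (0.349 to 0.568). Part of these windows also lies in Gm16229, a noncoding gene on the opposite strand. One window inside the gene, from 127101801 to 127102500, is listed alone, with 20 and 12 reads. The strongest of the other 7 windows of Nab2 had 45 to 78 reads in M1 and 15 to 22 in M1+IL-6.

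Klf13 (ENSMUSG00000052040.7) spans 71031237 to 71083801 of chromosome 7 (minus strand) and is the longest of the 10 genes here, with 68 windows. They held 1695 reads in M1 and 880 in M1+IL-6, means of 24.9 and 13.4 scaled reads per window and a ratio of 0.539 (0.496 to 0.585). The 19 windows nearest the start site had 483 and 230 reads, a ratio of 0.494 (0.421 to 0.580). The remaining 49 windows, which are mostly intron, had 1212 and 650 reads, a ratio of 0.557 (0.505 to 0.613). The intervals overlap, so the fall was not detectably different between the 2 parts of Klf13. In M1 at least 1 of the 49 windows had 131 reads or more, against a mean of 24.7, so a strong window also lies at least 13501 bases from the start site.

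Klf3 (ENSMUSG00000029178.7) spans 65194628 to 65221368 of chromosome 5 (plus strand) and was the only one of the 10 genes whose interval lay above 1 with the deposited scaling. Its 18 windows held 93 reads in M1 and 156 in M1+IL-6, means of 5.17 and 9.0 scaled reads per window and a ratio of 1.74 (1.34 to 2.28). Only a small share of genes had a higher ratio, Klf3 standing at the 96.1 percentile. Within Klf3 it was uneven. The first 7 windows had 57 and 63 reads, a ratio of 1.15 (0.789 to 1.67). The last 11 windows, which hold nearly all of the coding sequence and the introns between, had 36 and 93 reads, a ratio of 2.68 (1.81 to 4.06). In M1 none of these 11 windows had more than 8 reads, and in M1+IL-6 the strongest had 12 to 22. The intervals of both parts of Klf3 did not overlap.

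Klf2 (ENSMUSG00000055148.7), on chromosome 8 from 74842932 to 74845555 on the plus strand, had 51 reads in M1 and 38 in M1+IL-6 over 4 windows that include its start site and 331 bases upstream. The means were 12.8 and 9.86 scaled reads per window and the ratio 0.774 (0.494 to 1.20). No window of Klf2 had more than 21 reads in M1 or more than 13 in M1+IL-6. Egr3 (ENSMUSG00000033730.2), on chromosome 14 from 70477252 to 70479964 on the plus strand, had 39 and 48 reads over 5 windows, means of 7.80 and 9.97 scaled reads per window and a ratio of 1.28 (0.820 to 2.00). The window at its annotated start had 5 reads in each library. Klf4 (ENSMUSG00000003032.7), which spans 55540013 to 55545347 of chromosome 4 (minus strand), had 29 and 35 reads over 6 windows, means of 4.83 and 6.06 scaled reads per window and a ratio of 1.25 (0.744 to 2.12). Its first 3 windows had 17 and 28 reads, and its last 3 had 12 and 7. For Klf2, Egr3 and Klf4 a difference between the libraries was not detectable at this depth, and the intervals reach down to 0.494, 0.820 and 0.744 and up to 1.20, 2.00 and 2.12.

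A read count above 21, the threshold the methods use for a DNase I hypersensitive site, was applied to single windows. Only windows that a coding span touches were counted, so the start sites of Egr1, Klf3, Klf4 and Klf13 were left out. A window above 21 reads was certain in M1 for 6 of the 10 genes (Egr1, Egr2, Nab2, Klf6, Klf10 and Klf13), against 35.0% of all genes. This share is a lower limit, since 6619 of 22605 genes were undetermined in M1 and 0 of the 10 were. It was impossible for Egr3, Klf2, Klf3 and Klf4. In M1+IL-6, after scaling, it was certain for 4 genes (Egr2, Klf6, Klf10 and Klf13), against 18.1% of all genes, with a further 10826 undetermined. It was impossible for Egr1, Egr3, Klf2 and Klf4, and undetermined for Nab2 and Klf3. The SD between windows was lower in M1+IL-6 for 8 of the 10 genes, the exceptions being Klf3 (3.22 and 4.35) and Klf4 (1.94 and 4.23). The share of all genes with a lower SD was not computed, so this count does not set the 10 genes apart. In Klf6 the SD went from 89.2 to 18.2 and in Klf10 from 63.0 to 12.8.

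Related genes were taken by family, with earlier results of these data known. All 8 immediate early genes listed (Fos, Fosb, Junb, Ier2, Ier3, Dusp1, Btg2 and Zfp36), which are induced by the same signals as Egr1, were at least 2-fold lower in M1+IL-6 with the deposited scaling, with a median log2 ratio of -1.35. The share of all genes compared that were lower by this much was 13.4%, and it was 66.0% in the M1 range of 32.0 to 45.3 reads per window, where or above which all 8 lie. The extremes were Junb, which encodes a subunit of AP-1, with 527 and 122 reads and a log2 ratio of -2.05, and Fos, with 166 and 79 reads and a log2 ratio of -1.01. All 8 had M1 means of 39.5 reads per window or more, up to 192 in Ier2. Of the 6 genes for SRF and its partners, which act upstream of Egr1, 0 passed 2-fold. They ran from a log2 ratio of -0.51 (Mkl1) to 0.29 (Elk4), and Srf had 203 and 141 reads, a ratio of 0.721 (0.577 to 0.898).

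Of the 11 other KLF genes, 3 were at least 2-fold lower (13.4% of all genes). These were Klf1 (258 and 99 reads, log2 ratio -1.32), Klf16 (471 and 181 reads, -1.32) and Klf11 (652 and 310 reads, -1.02). A gain of 2-fold or more (1.71% of all genes) was seen in 1, Klf17 (23 and 47 reads, 1.07). KLF1 is the erythroid KLF factor, and the coding span of its gene had a mean of 51.6 reads per window in M1, higher than any of the 10 genes described above. The median log2 ratio of these 11 genes was 0.42. Of the 9 SP genes, which share the zinc finger type of the KLF genes, 4 were at least 2-fold lower, Sp1 (-1.86), Sp9 (-1.71), Sp3 (-1.17) and Sp2 (-1.10), and 0 higher, with a median of -0.32. Egr4, Nab1 and Wt1, the other relatives of the Egr genes, ran from 0.03 (Nab1) to 0.59 (Wt1) and none passed 2-fold. Klf1, Klf11, Klf16, Sp1 and Sp9 had M1 means in or above the range of 32.0 to 45.3 reads per window. In that range 66.0% of all genes were at least 2-fold lower. Sp2 (29.4 reads per window) and Sp3 lay below it. The lowest M1 mean among the KLF, SP and immediate early genes that were at least 2-fold lower was 9.29 reads per window, in Sp3. Gapdh and *c-myb*, given for reference, had log2 ratios of -2.08 and -0.95. These directions rest on the deposited scaling, and scaling on strong single windows would add 1.83 to each log2 ratio.

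**Figure D5:**
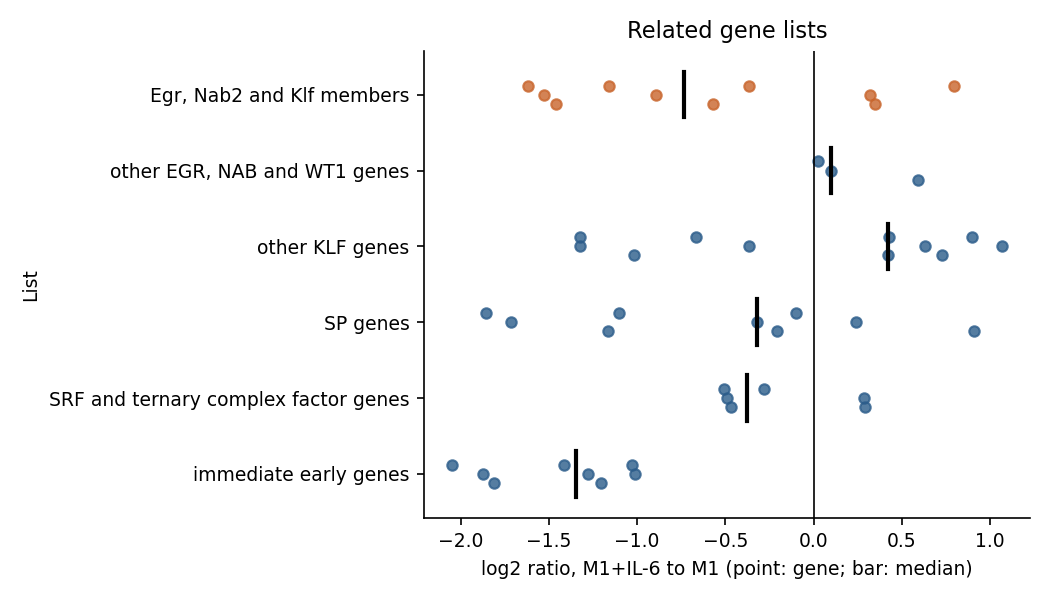
log2 ratio of M1+IL-6 to M1 (horizontal axis, deposited scaling) for every gene of the 10 described and of 5 related lists, with the median of each list as a black bar. The medians run from -1.35 (immediate early genes) to 0.42 (other KLF genes), and scaling on strong single windows would move all points right by 1.83.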

How the data were processed

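DHS-seq data came from M1 cells with and without IL-6, 1 library each. Adaptors and poor bases were removed by the authors, who used BWA on NCBIM37 (version not given in the sources used here) and plotted sites with Seqmonk. For each of 55432 transcripts the authors deposited the signal as a mean and an SD across 700-bp windows, already scaled between the libraries in a way not given in the sources used here. A column without values was not used. The number of windows matched this tiling in 100% of the rows, and the products of mean and windows were within 0.05 of whole reads in 100%. The spans of all 32 transcripts of the 10 genes are coding spans of GENCODE M1.

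Before the log2 ratio, 0.5 reads were added in both libraries. Ratios have 95% Clopper-Pearson intervals and means 95% Poisson intervals. Genes with more than 21 scaled reads in either library (18472) were compared, and a 2-fold ratio was used to count genes. Differences of nested transcripts gave 40253 stretches, and 0 sums reached by more than one route disagreed. The reads, sums and SDs bound the strongest window. On simulated windows of chromosomes 10 and 15, 3273 of 3273 stretches came back exactly, and for 192 of 200 changed genes the true fold lay inside the interval. The simulated reads were Poisson counts with a known scaling and no variation between libraries, so this coverage concerns counting error only.

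Genes, lists, scalings and alternatives were chosen with earlier results of these data known, and no list is independent support for another result. The genes named are the 10 members, and of related lists the extremes and those at least 2-fold changed. The bins of M1 signal, the part-gene alternatives and the count of windows above 21 reads were chosen after their values were seen. Promoter sequences were read from NCBIM37. Python 3.11.15, numpy 2.4.6, pandas 2.3.3, scipy 1.17.1 and matplotlib 3.10.9 were used. The lymphoid marker genes are not reported here.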

Additional observations from a re-analysis of the deposited data

How the results depend on the processing

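No paired analysis was possible because M1 and M1+IL-6 have a single library each. For 17 results, 121 values were recomputed under other settings, of which 100 stayed within the reported interval or within 1.5 times the reported count, 12 moved and 9 changed direction. No scaling, the total over coding spans, the median of ratios over genes and 0 or 5 reads added moved none of the results they were run on. The scaling by the median of ratios over 544 strong single windows (at least 22 reads in both libraries) added 1.83 to every log2 ratio. With it the median log2 ratio of the 10 genes was 1.09. Losses of 2-fold or more were then seen in 0 of them (0.0767% of all genes) and gains in 5 (84.8% of all genes). The log2 ratios counted as changed in direction were then 1.25 (Egr1), 0.36 (Egr2), 0.67 (Nab2), 0.30 (Klf6), 0.21 (Klf10) and 0.93 (Klf13). Those of the upstream windows (0.17) and the start site window (0.11) of Egr2 were counted likewise. Klf2, whose reported interval held 1, also turned positive, from -0.37 to 1.46, but is counted above among the values that moved. The intervals of Klf6, Klf10 and both parts of Egr2 then held 1. At a fold of 1.5 the number of higher genes was 1 (Klf3) in place of 0, against 10.8% of all genes. It was also 1 when the transcript with fewest windows stood for each gene (2.29% of all genes). That transcript of Klf3 covers only its last 11 windows. The number of lower genes was 5 in place of 4 at a fold of 1.5 (23.2% of all genes). With the transcript of fewest windows it was 3 (14.6% of all genes). Nab2, read there from 1 window, had a log2 ratio of -0.66 and an interval (0.278 to 1.34) that held 1. With 1 library per condition, depth limits Klf2, Egr3 and Klf4 most.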

Other observations

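The GC content of the windows of the 10 genes ran from 46.7% (Klf3) to 65.2% (Egr3), against a median of 45.6% over the spans of 22592 genes, and Egr1, Egr2, Egr3, Nab2 and Klf2 were at the 96.8 to 99.3 percentiles. The genes with the most CpG were Egr3 (77.7 per kb) and Klf2 (73.6 per kb), against a median of 12 per kb over all genes. Both were among the 4 genes with the weakest signal in M1, while Klf6, with 22.9 CpG per kb, had the highest mean, which could not be told from that of Klf10. CpG content and signal thus did not follow the same order in these 10 genes.

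The genes most like Klf6, which had the highest mean of the 10 in M1 with an interval overlapping that of Klf10, were 1600002H07Rik, Rxrb and 2400001E08Rik. Likeness was the distance between the log2 means of both libraries among 1373 genes with 8 to 10 windows, so it rests on 2 values a gene. Rxrb, a nuclear receptor gene, had 398 reads in M1 and 127 in M1+IL-6, means of 44.2 and 14.6 scaled reads per window. 1600002H07Rik had means of 44.4 and 14.9 and 2400001E08Rik means of 42.0 and 15.3. Their SDs between windows in M1, 75.8, 63.5 and 56.1 in the order of the names, were below the 89.2 of Klf6.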
